A study of Homo sapiens with 10 samples.

Results

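The signalling chain that thyroid cells use to respond to thyroid-stimulating hormone (TSH) was followed through 10 genes in human thyroid organoids. The genes were chosen by name for their place in the pathway, with no threshold on measured values, and all 10 were found among the 28265 gene symbols of the count tables. They are *TSHR* (the TSH receptor), *GNAS* (the α subunit of the stimulatory G protein, Gs), *ADCY3*, *ADCY6* and *ADCY9* (adenylyl cyclases, which make cAMP), *PRKACA* and *PRKACB* (catalytic subunits of protein kinase A, PKA), *PRKAR1A* and *PRKAR2B* (regulatory subunits of PKA) and *RGS2* (a regulator of G protein signalling). All 10 had enough counts to be tested.

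The cells were sorted for NKX2-1GFP before bulk RNA-seq and came from 1 clonal human ESC line, ESIBIe003-A-6, with 2 libraries at each of days 16, 23, 31, 38 and 45. Every library carries the same alleles, with one *NKX2-1* allele carrying GFP and with transgenes for *NKX2-1* and *PAX8* that doxycycline switches on, and all cells had been given activin A and then doxycycline before day 16. Each library comes from several pooled wells of the single line, and the study describes its replicates as biological and made of distinct wells, so the spread between them is that of wells of this line and not of donors. Counted reads totalled 7247268 to 10333933 per library.

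By the methods of the study, the day 16 cells were in basal medium, the day 23 and day 31 cells had 8-br-cAMP, a cell-permeable cAMP analogue, the day 38 cells had hrTSH (recombinant human TSH) with dexamethasone, a glucocorticoid, and the day 45 cells had hrTSH, dexamethasone and SB431542, an inhibitor of TGFβ receptor kinases. The sample titles name c-AMP on day 16 and leave out dexamethasone on day 45. The study dates the change to hrTSH to just before day 31, whereas the titles of the day 31 libraries name c-AMP, and the titles were followed. Day and medium changed together, so an effect of time and an effect of a medium cannot be told apart here, and the hormone cannot be told apart from dexamethasone. The thyroid identity of the cells was checked with 12 thyroid markers, whose summed level was 1584 to 2006 CPM in the 6 libraries of days 16 to 31 and 7525 to 10061 CPM in the 4 libraries of days 38 and 45. *FOXE1* was the most abundant of them on day 16, *PAX8* on days 23 and 31, and *TG* on days 38 and 45, when it made up most of the sum. The markers did not move as one, since from day 38 to day 45 edgeR called *TG* and *DUOX2* higher and 4 of the 12 lower. These 4 were *NKX2-1*, the gene behind the sort (154.0 and 132.9 to 58.1 and 66.7 CPM), *IYD* (190.8 and 186.4 to 69.1 and 80.5 CPM), *HHEX* (302.1 and 263.9 to 149.1 and 162.0 CPM) and *FOXE1* (382.3 and 363.9 to 204.3 and 217.8 CPM). *SFTA3*, on the same strand, overlaps 32.6% of the exon bases of *NKX2-1*, so the *NKX2-1* counts are uncertain.

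TSH binds its receptor on the basolateral membrane of the thyroid follicular cell, and the receptor activates Gs, which turns on adenylyl cyclases in the membrane. The cAMP that they make binds the regulatory subunits of PKA and frees the catalytic subunits, which phosphorylate CREB and other proteins. In the thyroid this route drives growth, iodide uptake and hormone synthesis, and RGS proteins, receptor kinases, arrestins, phosphodiesterases and PKA inhibitors limit it. A cAMP analogue enters this route below the receptor and the cyclases, and TSH enters it at the top.

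Of the 10 genes, 7 varied over the 5 days in the quasi-likelihood test of edgeR (Benjamini-Hochberg adjusted, threshold 0.05), against 36.3% of all 21014 genes tested. *GNAS*, *ADCY3* and *PRKACA* did not pass. The daily mean of *TSHR* spanned 11.4-fold from its lowest to its highest day, that of *RGS2* 5.24-fold and that of *ADCY9* 3.64-fold. *GNAS* spanned only 1.11-fold.

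**Figure D1:**
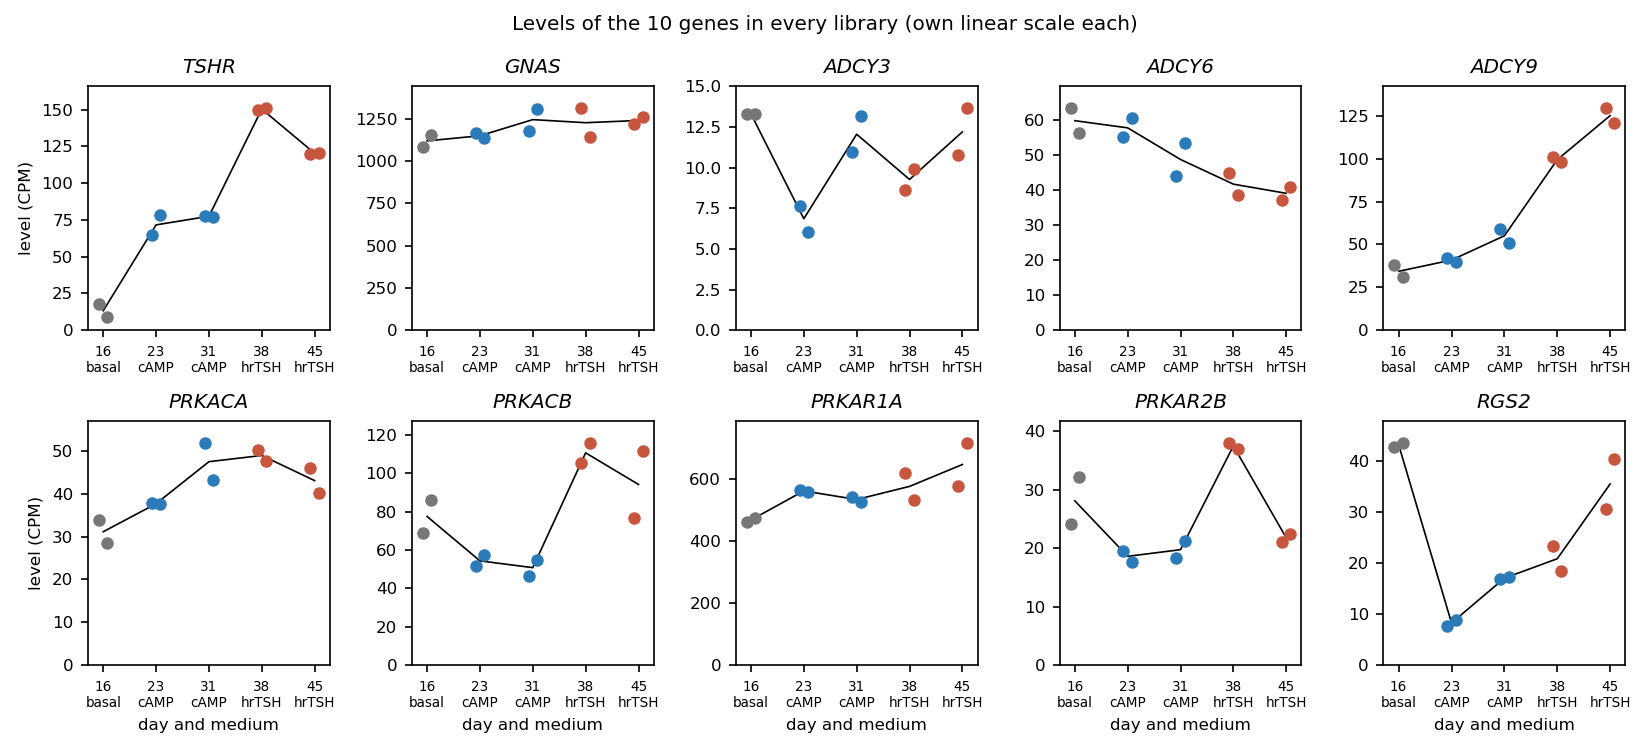
Level of each of the 10 genes (vertical axis, CPM on a linear scale from 0, own range for each gene) against day and medium (horizontal axis). Points are single libraries, 2 per day, lines join daily means, grey is basal medium, blue the cAMP analogue and red hrTSH. *TSHR* climbs from 8.87 and 17.5 CPM on day 16 to 149.8 and 151.0 CPM on day 38, *RGS2* is lowest on day 23, and *GNAS* stays between 1083 and 1313 CPM.

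*TSHR* lies on chromosome 14 of GRCh38, chr14:80954989-81146306, plus strand. Its level, in CPM (counts scaled to library size with TMM factors), was 17.5 and 8.87 in the day 16 libraries, 64.9 and 78.3 on day 23, 77.7 and 77.3 on day 31, 149.8 and 151.0 on day 38, and 120.1 and 120.6 on day 45. Both day 16 libraries lay below all others, and the 4 libraries of days 38 and 45 lay above the 4 of days 23 and 31 with no overlap. The days ranked 38, 45, 31, 23 and 16 from the highest, and only days 31 and 23 overlapped among neighbours in that order.

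*TSHR* rose by 2.44 on the log2 scale from day 16 to day 23 (standard error 0.21, edgeR adjusted p = 1.8e-10). It then changed by 0.11 to day 31 (standard error 0.19, edgeR adjusted p = 0.91), and rose again by 0.96 from day 31 to day 38 (standard error 0.19, edgeR adjusted p = 0.00031). The receptor transcript therefore gained its level in separate weeks, the first with the cAMP analogue and the third with hrTSH and dexamethasone. From day 38 to day 45 the value was −0.32 (standard error 0.19, edgeR adjusted p = 0.32), although both day 45 libraries lay below both day 38 libraries. The first rise stood between 2.03 and 3.03 when each library was left out, the ends being given by the day 16 libraries, which differed from each other by a larger ratio than those of any other day.

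The transcripts of the hormone subunits were low, at 0 to 4.91 CPM in every library. *CGA*, the common α subunit of the glycoprotein hormones, had 35 to 48 counts in the day 31 libraries and 0 counts in both day 38 libraries, at least 13.3-fold lower against a floor of 3 counts in each library. The change was called (edgeR adjusted p = 0.0033), and the call was lost without day 38 replicate 1 (edgeR adjusted p = 0.065) or day 38 replicate 2 (0.0592). *TSHB*, the β subunit, had 0 to 23 counts in any library. The floor of 3 counts was worth 0.307 CPM in the deepest scaled library and 0.436 CPM in the shallowest, for counting error alone.

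Among 10890 genes with a mean of at least 10 CPM, the 5 whose log2 CPM followed *TSHR* most closely over the 10 libraries were *PDE4B* (Pearson's r 0.987, Spearman's rho 0.952), *LINC00473* (0.985 and 0.952), *TCF7L2* (0.981 and 0.915), *SLC9A3R1* (0.973 and 0.891) and *PTCSC3* (0.971 and 0.915). These are descriptions over libraries that share day and medium. *PDE4B*, a phosphodiesterase that breaks down cAMP, had 5.20 and 2.34 CPM on day 16, 29.2 and 31.8 on day 23, 19.6 and 29.3 on day 31, 57.9 and 62.5 on day 38, and 47.0 and 37.4 on day 45. *LINC00473*, a long noncoding RNA, was at 0 in both day 16 libraries, at 9.42 to 14.3 CPM in the cAMP libraries and at 35.6 to 59.4 CPM in the hrTSH libraries. *PTCSC3*, a thyroid long noncoding RNA, was likewise at 0 on day 16 and highest on day 38, with 38.6 and 41.6 CPM. All 5 genes were thus lowest on day 16 and highest in a library of day 38.

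**Figure D2:**
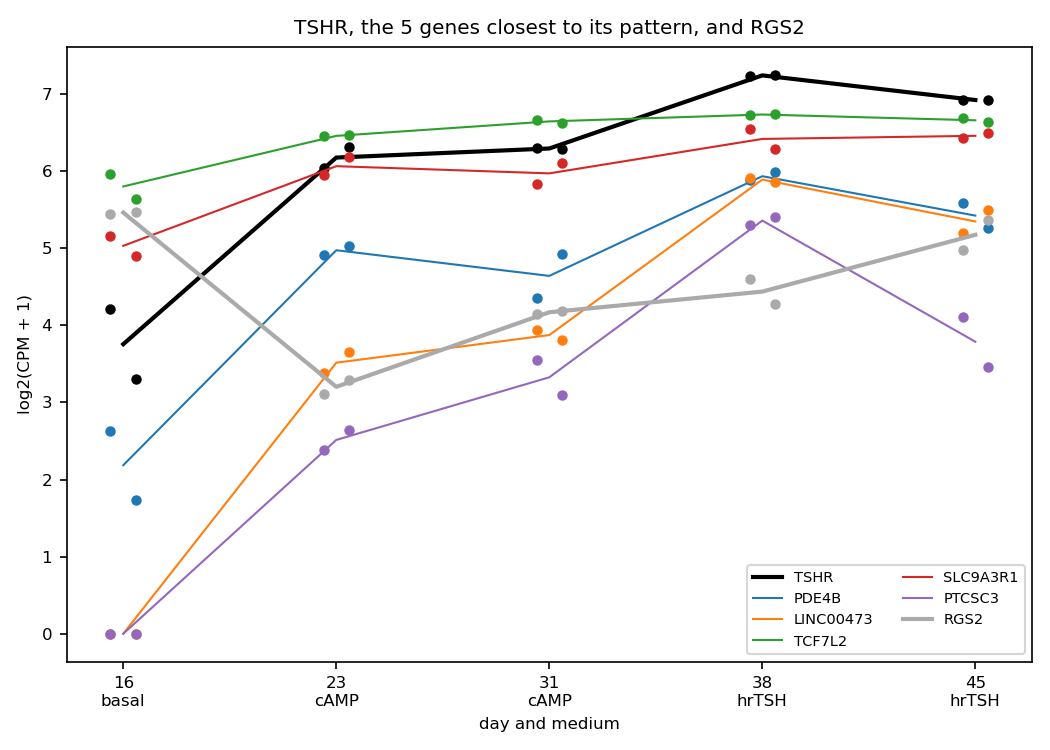
Level as log2(CPM + 1) (vertical axis) against day and medium (horizontal axis) for *TSHR*, the 5 genes with the most similar pattern, and *RGS2*. Points are single libraries, 2 per day, and lines join daily means. *LINC00473* and *PTCSC3* start at 0 on day 16, whereas *RGS2* drops from day 16 to day 23.

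*RGS2* encodes a GTPase-activating protein that switches off Gq and can also restrain adenylyl cyclases, and it is a known cAMP-inducible gene in several cell types. It lies at chr1:192809039-192812275 of GRCh38, plus strand. Its level was 42.7 and 43.5 CPM on day 16, 7.65 and 8.80 on day 23, 16.8 and 17.2 on day 31, 23.2 and 18.4 on day 38, and 30.5 and 40.4 on day 45. The days ranked 16, 45, 38, 31 and 23 from the highest, and no neighbouring days overlapped. *RGS2* was thus lowest in the first week of the cAMP analogue, when *TSHR* made its first rise.

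*RGS2* fell by 2.39 on the log2 scale from day 16 to day 23 (standard error 0.30, edgeR adjusted p = 3.4e-07). Its later weekly values were 1.05 to day 31 (edgeR adjusted p = 0.0513), 0.29 to day 38 (edgeR adjusted p = 0.57) and 0.77 to day 45 (edgeR adjusted p = 0.0717). No single week after day 23 passed the threshold, but days 38 and 45 together were higher than days 23 and 31 by 1.20 (standard error 0.20, edgeR adjusted p = 1.5e-05). On day 45 the level was 0.28 below that of day 16 on the log2 scale, which did not pass (edgeR adjusted p = 0.51). DESeq2 put the week to day 31 (adjusted p = 0.0299) and the week to day 45 (adjusted p = 0.0413) under the threshold. In edgeR the week to day 31 also passed without TMM factors (adjusted p = 0.0445), without the low-count filter (0.0397), with the replicate number as a block (0.0318), and without day 16 replicate 1 (0.0446), day 16 replicate 2 (0.0428) or day 45 replicate 1 (0.0491), and the week to day 45 passed with only the libraries of those days (0.0337).

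The promoter sequences are shown because the cAMP-responsive factor CREB is known to bind the letters TGACGTCA and, less tightly, TGACG. Windows of 250 bases before to 50 after the start of each gene came from RefSeq (GRCh38.p14), both strands were searched, and 8 of the 10 genes had a window. Positions before the start refer to RefSeq, and the matches printed for *TSHR*, *PRKAR1A* and *PRKACA* lie within the longer GENCODE spans of these genes. TGACGTCA was found in 1.85% and TGACG, which lies within it, in 24.6% of all 35116 windows. The *RGS2* window held CGTCA, which reads TGACG on the other strand, 181 bases before the start, at chr1:192808858-192808862, shown in capitals in the 250 bases upstream (chr1:192808789-192809038, plus strand):
RGS2: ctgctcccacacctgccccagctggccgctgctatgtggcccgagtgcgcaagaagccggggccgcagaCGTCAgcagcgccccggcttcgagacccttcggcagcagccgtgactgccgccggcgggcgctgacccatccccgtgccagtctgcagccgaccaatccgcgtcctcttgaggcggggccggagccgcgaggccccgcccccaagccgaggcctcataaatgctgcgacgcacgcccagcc

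The *TSHR* window held neither TGACGTCA nor TGACG. It held TGAGGTCA, which differs from the first by 1 letter, 81 bases before the RefSeq start, at chr14:80955540-80955547. The looser form TGANGTCA, taken up after the *TSHR* sequence had been seen, occurred in 7.72% of windows. The full TGACGTCA was found in *PRKAR1A*, 49 bases before one of its 5 annotated starts, at chr17:68512381-68512388. The catalytic subunit genes held CGTCA, *PRKACA* 49 and 4 bases before the same start and *PRKACB* 130 bases before one. The *PRKAR2B* window held none of these letters. CGTCA or TGACG was also in 3 of the 6 windows of *GNAS* and in 1 of the 2 of *ADCY3*, and CGTCA in other windows of *PRKAR1A*. The shares above are per window, so a gene with several windows has more chances of a match. For 4 genes, the 30 bases around 1 match each are given 5′ to 3′ on the gene's strand. The matched letters are in capitals, to let the 4 genes be compared:
TSHR: ctccacagtggTGAGGTCAcagccccttgg
PRKAR1A: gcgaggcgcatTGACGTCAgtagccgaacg
PRKACA: ggcggcgctgagcCGTCAgtcagggcggcc
PRKACB: tcccgggcctgcgCGTCActtccggcgcgc
A match is a description of the letters and not of binding.

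*GNAS*, at chr20:58839718-58911192, couples the receptor to the cyclases. It ran from 1083 CPM in a day 16 library to 1313 CPM in a day 38 library, and neighbouring days in the order of its means overlapped throughout. Its values in the 6 comparisons lay between −0.02 and 0.15 on the log2 scale, and the change from day 16 to day 45 was 0.15 (standard error 0.11, edgeR adjusted p = 0.36). While the receptor transcript rose, no change of *GNAS* was detected. The count is for the gene as a whole, which has 6 promoter windows, so the Gsα transcript cannot be told apart from others of the gene. The antisense gene *GNAS-AS1* overlaps 5.07% of its exon bases, and since the strand setting of the counting is not stated in the sources used here, reads of the overlap cannot be told apart.

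Among the other G protein subunits on the list, 4 of 15 tested were called from day 31 to day 38, 3 higher and 1, *GNB5*, lower (26.7%, beside 15.0% of all genes). From day 16 to day 45, 8 of the 15 were called, 5 higher and 3 lower (53.3%, beside 24.6% of all genes). The β subunit *GNB4* fell from 192.1 and 189.6 to 62.6 and 93.8 CPM (−1.28 on the log2 scale, edgeR adjusted p = 1.0e-07). The α subunit *GNAL* rose from 5.71 and 5.66 to 14.7 and 13.5 CPM (1.31, edgeR adjusted p = 0.0166). Its call was lost in 3 fits without 1 library and in 1 other setting. *MPPE1*, on the opposite strand, overlaps 27.7% of its exon bases. *GNAI1*, an inhibitory α subunit that lowers cyclase activity, had 152.9 and 166.6 CPM on day 16, 56.5 and 57.2 on day 23, 52.0 and 52.1 on day 31, 139.5 and 144.3 on day 38, and 101.9 and 124.6 on day 45. It fell by 1.49 on the log2 scale from day 16 to day 23 (standard error 0.16, edgeR adjusted p = 1.3e-08) and rose by 1.45 from day 31 to day 38 (standard error 0.16, edgeR adjusted p = 1.1e-08). The cAMP libraries were therefore low in *GNAI1* and the libraries before and after them high, with no overlap. The β subunit *GNB1* (0.84, standard error 0.13, edgeR adjusted p = 7.8e-06) and the γ subunit *GNG5* (1.09, standard error 0.18, edgeR adjusted p = 2.4e-05) also rose on the log2 scale from day 31 to day 38. The β subunit *GNB5* (−0.69, edgeR adjusted p = 0.0357) lost its call when any library of those days was left out (edgeR adjusted p = 0.112 to 0.279).

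*ADCY9*, a widely expressed cyclase that is insensitive to forskolin, lies at chr16:3953387-4116442, minus strand. Its level was 37.8 and 30.9 CPM on day 16, 42.2 and 39.6 on day 23, 59.1 and 51.1 on day 31, 100.8 and 98.2 on day 38, and 129.5 and 120.8 on day 45. Every later day lay above every earlier day with no overlap between libraries. The increase from day 31 to day 38 was 0.85 on the log2 scale (standard error 0.18, edgeR adjusted p = 0.00062) and that from day 16 to day 45 was 1.86 (standard error 0.18, edgeR adjusted p = 5.1e-10). The other weekly values, 0.25, 0.43 and 0.33, did not pass (edgeR adjusted p = 0.44, 0.31 and 0.26).

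*ADCY6*, a cyclase inhibited by calcium and by Gi, lies at chr12:48766194-48789089, minus strand, and took the opposite course. Its level was 63.3 and 56.2 CPM on day 16, 55.0 and 60.4 on day 23, 44.01 and 53.29 on day 31, 44.8 and 38.4 on day 38, and 37.2 and 40.8 on day 45. The day 16 libraries lay above those of day 45, while neighbouring days overlapped except days 23 and 31. It fell by 0.61 on the log2 scale from day 16 to day 45 (standard error 0.21, edgeR adjusted p = 0.0275), a call lost without day 16 replicate 1 (−0.54, edgeR adjusted p = 0.119), day 45 replicate 1 (−0.55, 0.14) or day 45 replicate 2 (−0.68, 0.0625) and with only the libraries of the 2 days in the fit (−0.62, 0.066). Between the hrTSH and the cAMP days it fell by 0.39 (standard error 0.15, edgeR adjusted p = 0.0399), and this call was lost without day 23 replicate 1 (−0.43, edgeR adjusted p = 0.0572), day 23 replicate 2 (−0.36, 0.119), day 31 replicate 2 (−0.34, 0.123), day 38 replicate 1 (−0.45, 0.0624), day 38 replicate 2 (−0.34, 0.174), day 45 replicate 1 (−0.36, 0.1) or day 45 replicate 2 (−0.43, 0.0516).

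*ADCY3*, a cyclase stimulated by calcium and calmodulin, lies at chr2:24819169-24920237, minus strand, and was scarce. It lay between 6.06 and 13.7 CPM in all libraries, lowest on day 23, with a value of −0.96 on the log2 scale from day 16 to day 23 (standard error 0.42, edgeR adjusted p = 0.16). *CENPO*, on the opposite strand, overlaps 23.05% of its exon bases, so its counts are uncertain.

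Of 7 other cyclases on the list, 4 varied over the days (57.1%, beside 36.3% of all genes). *ADCY2*, a cyclase that Gβγ subunits stimulate together with Gsα, had 179.4 and 145.8 CPM on day 16, 141.5 and 140.0 on day 23, 67.9 and 80.3 on day 31, 18.3 and 18.5 on day 38, and 6.53 and 3.28 on day 45. It fell by 2.01 on the log2 scale from day 31 to day 38 (standard error 0.20, edgeR adjusted p = 1.9e-09) and by 5.09 from day 16 to day 45 (standard error 0.24, edgeR adjusted p = 4.2e-18). *ADCY1*, a calcium and calmodulin-stimulated cyclase, peaked on day 31 with 58.7 and 62.3 CPM, against 12.6 and 13.4 on day 16 and 22.8 and 20.4 on day 38. Its drop from day 31 to day 38 was −1.48 on the log2 scale (standard error 0.25, edgeR adjusted p = 3.3e-05). *ADCY8* had 17 to 35 counts on day 38 and 0 counts on days 23 and 31, at least 8.78-fold higher on day 38 than on day 31, and its call was lost without any 1 library of those days or day 45 replicate 1 (edgeR adjusted p = 0.051 to 0.209).

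Levels of different genes are compared per length, as CPM per kb of the union of a gene's exons. The 9 membrane cyclases together held 26.3 ± 3.06 CPM per kb on day 16, 24.2 ± 0.867 on day 23, 25.6 ± 1.37 on day 31, 22.1 ± 0.505 on day 38 and 26.0 ± 0.890 on day 45 (SD, n = 2). Within this sum the share of *ADCY2* went from 35.1% ± 1.05 on day 16 to 1.07% ± 0.467 on day 45, and the share of *ADCY9* from 12.3% ± 0.311 to 45.4% ± 0.678. *ADCY6* held 26.9% ± 0.870 on day 16 and 17.8% ± 1.79 on day 45. By daily mean the leading cyclase transcript per length was *ADCY2* on days 16 and 23 and *ADCY9* on days 38 and 45. On day 31 *ADCY6* and *ADCY9* were within their spread, and with canonical transcripts *ADCY2* led that day. The level of the sum depends on which transcripts are made, since with the lengths of the canonical transcripts it went from 47.7 ± 5.77 on day 16 to 30.9 ± 0.421 on day 38 and 34.9 ± 1.38 on day 45.

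**Figure D3:**
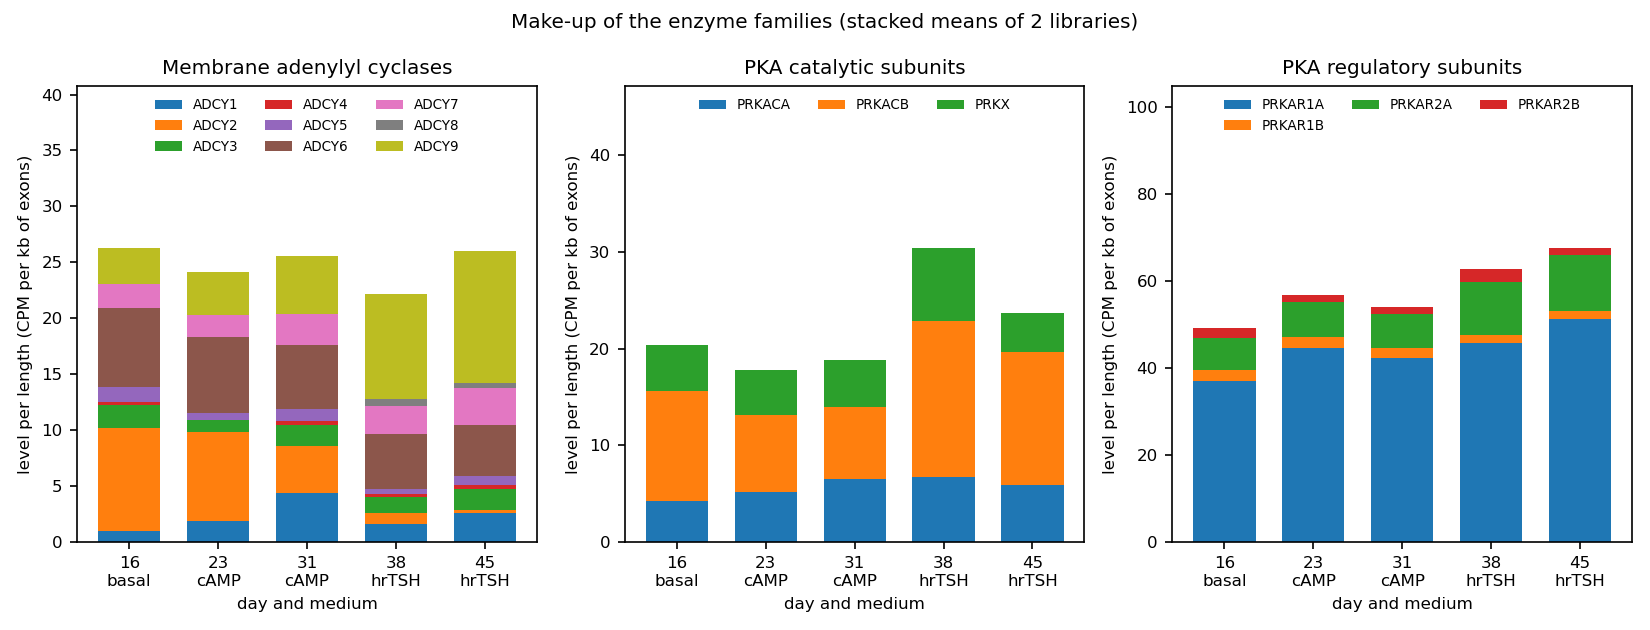
Level per length (vertical axis, CPM per kb of exons, linear from 0) of the membrane adenylyl cyclases, the PKA catalytic subunits with the related kinase PRKX, and the PKA regulatory subunits, against day and medium (horizontal axis). Segments are means of 2 libraries. *ADCY2* shrinks from 35.1% to 1.07% of the cyclases while *ADCY9* grows from 12.3% to 45.4%, and *PRKAR1A* holds 72.7% to 78.5% of the regulatory subunits.

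*PRKACB* encodes the β catalytic subunit of PKA and lies at chr1:84078062-84238498, plus strand. Its level was 69.1 and 86.0 CPM on day 16, 51.4 and 57.3 on day 23, 46.6 and 55.0 on day 31, 105.6 and 115.9 on day 38, and 76.9 and 111.5 on day 45. The 4 libraries with the cAMP analogue lay below the other 6. *PRKACB* rose by 1.12 on the log2 scale from day 31 to day 38 (standard error 0.19, edgeR adjusted p = 3.1e-05). The day 45 level was 0.28 above that of day 16 and did not pass (edgeR adjusted p = 0.30). The value from day 16 to day 23, −0.51 (edgeR adjusted p = 0.0757), passed with the replicate number as a block (adjusted p = 0.0493) and without day 16 replicate 1 (−0.65, adjusted p = 0.0397).

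*PRKACA*, the α catalytic subunit at chr19:14091688-14118084, minus strand, moved less. It lay between 28.4 CPM on day 16 and 51.9 CPM on day 31, and both day 16 libraries lay below all others. Its daily mean was 1.57-fold higher on day 38, its highest day, than on day 16, a pair that was not compared. Of the 6 comparisons its largest value was 0.47 on the log2 scale from day 16 to day 45. This was short of the threshold (standard error 0.22, edgeR adjusted p = 0.14). Per length *PRKACB* was above *PRKACA* in the mean of each day, at 16.2 ± 1.06 against 6.68 ± 0.240 CPM per kb on day 38 (SD, n = 2). On day 31 the daily means were closest, at 7.42 ± 0.875 and 6.48 ± 0.842, which differed by about their spread. This order rests on the lengths, since with canonical transcripts *PRKACA* had 17.6 ± 2.29 and *PRKACB* 11.3 ± 1.34 CPM per kb on day 31, and 14.0 ± 0.0477 and 12.1 ± 0.923 on day 23, while *PRKACB* stayed above on day 38 (24.7 ± 1.61 against 18.2 ± 0.652).

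*PRKAR2B*, a type II regulatory subunit that anchors PKA to membranes through A-kinase anchoring proteins, lies at chr7:107044705-107161811, plus strand, and stood out on day 38. Its level was 24.1 and 32.1 CPM on day 16, 19.5 and 17.7 on day 23, 18.3 and 21.2 on day 31, 38.02 and 37.03 on day 38, and 21.1 and 22.5 on day 45. Both day 38 libraries lay above all others. The rise from day 31 to day 38 was 0.93 on the log2 scale (standard error 0.28, edgeR adjusted p = 0.0174), and the value from day 38 to day 45 was −0.78 (standard error 0.28, edgeR adjusted p = 0.0615). The latter passed with only the libraries of these days in the fit (−0.76, edgeR adjusted p = 0.0255) and without day 16 replicate 1 (−0.79, 0.0381) or day 16 replicate 2 (−0.78, 0.0442). The rise to day 38 lost its call without day 31 replicate 1 (0.82, edgeR adjusted p = 0.139), day 31 replicate 2 (1.03, 0.0525), day 38 replicate 1 (0.91, 0.135) or day 38 replicate 2 (0.95, 0.108), and without TMM factors (0.71, 0.075).

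*PRKAR1A*, a type I regulatory subunit, lies at chr17:68511780-68551319, plus strand, and was the most abundant regulatory subunit per length, at 72.7% ± 2.85 to 78.5% ± 0.789 of the family on any day. Its level was 461.3 and 472.9 CPM on day 16, 564.9 and 556.5 on day 23, 542.3 and 523.9 on day 31, 619.6 and 531.0 on day 38, and 576.5 and 715.0 on day 45. The day 16 libraries lay below all others, day 38 overlapped days 45, 31 and 23, and day 45 lay above day 23. The increase from day 16 to day 45 was 0.47 on the log2 scale (standard error 0.12, edgeR adjusted p = 0.0034), and without day 45 replicate 2 it was 0.30 and did not pass (edgeR adjusted p = 0.133). *PRKAR2A*, the other type II subunit, rose by 0.64 on the log2 scale from day 31 to day 38 (standard error 0.16, edgeR adjusted p = 0.0052), from 67.8 and 69.6 to 103.0 and 111.2 CPM. That call was lost without day 31 replicate 1 (0.62, edgeR adjusted p = 0.0558), day 38 replicate 2 (0.59, 0.0897) or TMM factors (0.42, 0.076).

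The weekly comparisons can be read across the whole set. From day 16 to day 23, 2 of the 10 genes were called, *TSHR* higher and *RGS2* lower, against 10.9% of all genes tested (5.60% called higher and 5.33% lower). From day 31 to day 38, 4 were called, all higher (*TSHR*, *ADCY9*, *PRKACB* and *PRKAR2B*), against 15.0% of all genes called, 8.80% higher and 6.23% lower. The median of the 10 genes was −0.01 in the first of these weeks and 0.20 in the second, on the log2 scale, beside −0.02 and 0 for all genes tested.

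**Figure D4:**
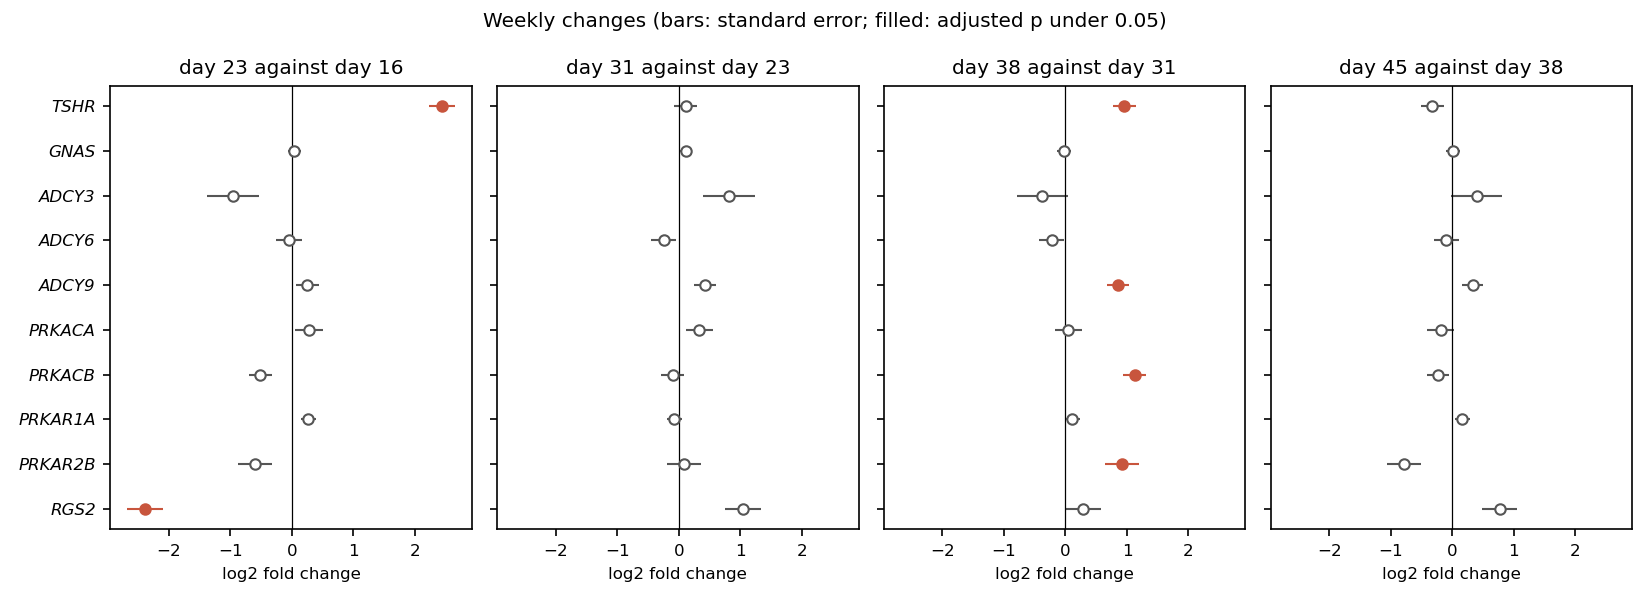
Log2 fold change (horizontal axis) of each of the 10 genes (vertical axis) in the 4 weekly comparisons, with bars of 1 standard error. Filled points had an edgeR adjusted p under 0.05. The filled points are *TSHR* and *RGS2* in the first week and *TSHR*, *ADCY9*, *PRKACB* and *PRKAR2B* from day 31 to day 38.

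From day 23 to day 31 edgeR called 0 of the 10 genes, against 2.25% of all genes (1.58% higher and 0.666% lower), with 2 at an unadjusted p under 0.05 and 1, *RGS2*, called by DESeq2. From day 38 to day 45 edgeR called 0, against 11.2% of all genes (4.85% higher and 6.35% lower), again with 2 at an unadjusted p under 0.05 and 1, *RGS2*, called by DESeq2. Between the 4 hrTSH libraries and the 4 cAMP libraries 6 of the 10 were called, 5 higher and *ADCY6* lower, against 29.9% of all genes (16.1% higher and 13.7% lower). From day 16 to day 45 the called genes were 4, *TSHR*, *ADCY9* and *PRKAR1A* higher and *ADCY6* lower, against 24.6% (12.9% higher and 11.7% lower). These comparisons share libraries and are not independent of each other.

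In the bulk of sorted cells, fewer cells of a type and less RNA per cell cannot be told apart. The rise of *TSHR*, *ADCY9*, *PRKACB* and *PRKAR2B* on day 38 came with changes in markers of other cells. So did the rise of *TSHR* and the fall of *RGS2* from day 16 to day 23. In that week all 3 fibroblast markers were called. *DCN* was higher (2.28 and 9.48 to 28.8 and 34.1 CPM). Lower were *PRRX1* (32.8 and 45.4 to 3.77 and 3.66 CPM) and *COL1A2* (254 and 283 to 220 and 178 CPM). The 3 fibroblast markers summed to 200 to 338 CPM in the 6 earlier libraries and 1006 to 1220 CPM in the 4 later ones. From day 31 to day 38 this rise was that of *COL1A2*, with 154.0 and 210.3 CPM on day 31 and 1151 and 1163 CPM on day 38, the only 1 of the 3 called in that week. *DCN* had 43.1 and 52.5 CPM on day 31 and 52.1 and 49.5 CPM on day 38, and *PRRX1* was highest on day 16, with 32.8 and 45.4 CPM, and at 7.34 to 9.44 CPM on days 38 and 45. The 3 cardiovascular markers summed to 3.69 to 13.5 CPM in the earlier and 64.1 to 92.0 CPM in the later libraries, with *DES* the most abundant in the later ones. The 3 goblet cell markers summed to 0.761 to 5.47 CPM and 36.4 to 102.5 CPM. Of these *MUC5AC* was called lower from day 38 to day 45 (29.7 and 21.9 to 0.436 and 2.08 CPM) and *MUC5B* higher (17.1 and 13.2 to 96.5 and 47.4 CPM). All of these were detected in every library of days 38 and 45, and their part in the changes of the 10 genes was not tested.

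Other lists moved in ways that differ from this. The lung surfactant markers, led by *SFTPB*, summed to 507 CPM in both day 31 libraries and to 8.53 and 11.1 CPM on day 38, with *SFTPC* at 0 in every library but 1. From day 16 to day 23, the week of the first rise of *TSHR*, *SFTPB* was called higher (3.55 and 1.48 to 164.7 and 148.6 CPM). The 2 airway basal markers summed to 1.995 to 21.8 CPM up to day 31, 17.6 to 21.1 on day 38 and 38.7 to 44.3 on day 45. *TP63* was highest on day 16 (15.2 and 10.6 CPM) and was called lower on day 23 (1.995 and 4.23 CPM). *KRT5* was at 0 to 0.127 CPM up to day 23 and at 36.9 and 28.2 CPM on day 45. The 3 endothelial markers, led by *KDR*, summed to 10.0 to 36.3 CPM in all libraries. From day 31 to day 38 *KDR* was called lower (36.3 and 23.5 to 8.96 and 10.0 CPM), while *CDH5* had 0 and 1.28 CPM and then 4.43 and 5.47 CPM, which did not pass (edgeR adjusted p = 0.17). *PTPRC*, an immune marker, was at 0 to 8.12 CPM, and of the adipocyte markers, whose cells also carry the TSH receptor, *ADIPOQ* was at 0 in all 10 libraries while *PLIN1* was detected in 9, at 0 and 0.582 CPM on day 31 and 1.84 and 1.86 CPM on day 38, a change that did not pass (edgeR adjusted p = 0.35). The immediate early and stress genes, led by *EGR1*, summed to 4765 to 6470 CPM up to day 38 and to 3023 and 3249 CPM on day 45. From day 16 to day 23, the week of the *RGS2* fall, 3 of these 6 genes were called, 1 higher and 2 lower. In that week *FOSB* went from 1218 and 792 to 533 and 543 CPM. *ATF3* went from 134 and 114 to 71.2 and 66.5 CPM, and *JUN* from 777 and 728 to 990 and 928 CPM. From day 38 to day 45 *FOS*, *EGR1* and *JUN* were called lower, while *ATF3* (143.0 and 137.3 to 278.2 and 274.7 CPM) and *FOSB* (378.8 and 396.5 to 706.6 and 653.3 CPM) were called higher, and their part was not tested.

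Beyond the 10 genes, 75 other genes of the pathway in 9 lists were followed, of which 70 could be tested. From day 31 to day 38, 9 of these were called higher and 6 lower (21.4%, beside 15.0% of all genes), with a median of 0.00 on the log2 scale, and between the hrTSH and cAMP days 16 were called higher and 11 lower (38.6%, beside 29.9%). From day 16 to day 23, *ADCY1* was called higher and *GNAI1*, *ADCY10* and *ABCC4* lower (5.71%, beside 10.9%), *ADCY10* with 75 and 70 counts on day 16 and 19 and 0 on day 23. The call of *ADCY10* was lost without day 16 replicate 1, day 16 replicate 2 or day 23 replicate 2 (edgeR adjusted p = 0.13, 0.111 and 0.255) and with filterByExpr (0.0526), and that of *ADCY1* without day 23 replicate 2 (0.0685) and with only the libraries of those days (0.0732). From day 23 to day 31, *ADCY1* and *ABCC4* were called higher and *ADCY2* lower, the call of *ADCY2* being lost without day 31 replicate 1 (−0.81, edgeR adjusted p = 0.148) and that of *ABCC4* without any library of those days or day 38 replicate 2 (0.0543 to 0.494), with filterByExpr (0.0506) and with only the libraries of those days (0.0804). These 3 were 4.29% of those tested, beside 2.25% of all genes. From day 38 to day 45, *AKAP8*, *AKAP12*, *RAPGEF3*, *ABCC4* and *RIC8B* were called higher and *ADCY2*, *RAPGEF4*, *PKIA*, *PRKX* and *GNAI2* lower (14.3%, beside 11.2% of all genes). The calls of *RAPGEF3*, *RIC8B*, *ABCC4* and *GNAI2* in that week were also lost in some of the fits without 1 library, with edgeR adjusted p up to 0.271, 0.329, 0.357 and 0.107, and that of *RIC8B* without the low-count filter (0.0518). The counts moved with single libraries, from 2 to 7 of the 70 from day 16 to day 23, 1 to 4 from day 23 to day 31, 8 to 16 from day 31 to day 38, 3 to 14 from day 38 to day 45 and 16 to 33 between the hrTSH and cAMP days. Several of these genes fall outside the rule for named genes and were chosen after their values were seen. Called genes thus went in both directions in each of these comparisons.

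Of 7 receptor kinases and arrestins, which silence activated receptors, 3 were called from day 31 to day 38 (42.9%, beside 15.0% of all genes), *GRK3* (log2 value 0.46, edgeR adjusted p = 0.0103) and *GRK4* (2.44, edgeR adjusted p = 0.0238) higher and *ARRB1* lower. *GRK3* lost its call without day 31 replicate 2 (0.39, edgeR adjusted p = 0.132), day 38 replicate 2 (0.37, 0.193) or TMM factors (0.24, 0.22), and *GRK4* without day 31 replicate 1 (1.51, 0.26) or day 38 replicate 2 (1.57, 0.409) and with only the libraries of those days (2.44, 0.0545). *GRK4* had 2 and 29 counts in the day 31 libraries, and its value was 5.45 without day 31 replicate 2 and 2.98 without day 38 replicate 1. *ARRB1*, β-arrestin 1, had 47.9 and 33.0 CPM on day 16, 60.5 and 67.6 on day 23, 99.6 and 88.4 on day 31, 21.4 and 18.0 on day 38, and 32.8 and 17.9 on day 45. Its cAMP libraries lay above all others. *ARRB1* fell by 2.25 on the log2 scale from day 31 to day 38 (standard error 0.25, edgeR adjusted p = 1.5e-08). *GRK5*, a kinase of activated receptors, rose by 1.39 from day 16 to day 45 (standard error 0.34, edgeR adjusted p = 0.0019). Its level went from 9.76 and 7.27 to 24.8 and 19.9 CPM, and was highest on day 38, at 29.6 and 29.3 CPM.

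Of 8 other receptors that couple to Gs, 1 was called from day 31 to day 38 (12.5%, near the 15.0% of all genes). This was *ADRB1*, the β1-adrenergic receptor, with 0 counts in the libraries of days 23 and 31, 32 and 23 counts on day 38 and 21 and 47 on day 45. It was at least 9.35-fold higher on day 38 than on day 31, and its call was lost without day 31 replicate 1, day 31 replicate 2 or day 38 replicate 1 (edgeR adjusted p = 0.0844, 0.0709 and 0.0694). Its level in those 4 libraries was 2.68 to 5.13 CPM.

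Of 5 genes of the EPAC pathway and cAMP efflux, through which cAMP acts apart from PKA or leaves the cell, *RAPGEF4* (EPAC2) was high on day 38 alone. Its level was 9.76 and 7.14 CPM on day 16, 6.32 and 3.20 on day 23, 4.504 and 3.258 on day 31, 21.0 and 24.7 on day 38, and 7.98 and 4.70 on day 45. Both day 38 libraries lay above the other 8. *RAPGEF3* was instead lowest on day 38, at 5.18 and 4.08 CPM, against 9.21 and 12.5 on day 31 and 14.7 and 11.9 on day 45. As given above, it was called higher from day 38 to day 45 (1.51 on the log2 scale, edgeR adjusted p = 0.0285). *RAPGEF4* rose by 2.55 on the log2 scale from day 31 to day 38 (standard error 0.50, edgeR adjusted p = 0.00029) and fell by 1.85 to day 45 (standard error 0.48, edgeR adjusted p = 0.0085). The fall lost its call without day 38 replicate 1 (−1.97, edgeR adjusted p = 0.0559), day 38 replicate 2 (−1.73, 0.136) or day 45 replicate 2 (−1.51, 0.118).

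*PKIA*, a peptide inhibitor of the PKA catalytic subunit, also dropped after day 38. It had 27.1 and 26.7 CPM on day 38 and 10.74 and 11.03 on day 45, a value of −1.30 on the log2 scale (standard error 0.31, edgeR adjusted p = 0.0037). The kinase *PRKX* went from 49.4 and 49.6 CPM to 21.1 and 32.1 CPM over the same week, −0.89 on the log2 scale (standard error 0.26, edgeR adjusted p = 0.02), a call lost without day 38 replicate 1 (edgeR adjusted p = 0.116), day 38 replicate 2 (0.128) or day 45 replicate 1 (0.261). Of 12 A-kinase anchoring proteins tested, 2 were called higher in that week (16.7%, beside 4.85% of all genes called higher), *AKAP12* (log2 value 0.38, edgeR adjusted p = 0.0285) and *AKAP8* (1.02, standard error 0.22, edgeR adjusted p = 0.0011). The call of *AKAP8* was lost without day 38 replicate 2 (0.89, edgeR adjusted p = 0.054), and that of *AKAP12* without day 38 replicate 1 (0.267), day 38 replicate 2 (0.0902) or day 45 replicate 2 (0.233).

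Of 7 other RGS genes of the same family, 1 was called higher and 2, *RGS3* and *RGS13*, lower between the hrTSH and cAMP days (42.9%, beside 29.9% of all genes). *RGS3* had a log2 value of −0.50 (edgeR adjusted p = 0.0422). *RGS13* had 0 to 22 counts in any library. *RGS3* lost its call without any of 7 of the 10 libraries and with the replicate number as a block (edgeR adjusted p = 0.0502). *RGS13* lost its call without any of 8 libraries, with the block (0.0636) and with only the libraries of those days (0.0504). *RGS16*, a regulator of Gi and Gq, had 14.1 and 10.2 CPM on day 16 and 6.65 to 10.7 CPM in the cAMP libraries. It had 14.0 and 16.9 CPM on day 38, near its day 16 level, and 33.4 and 22.0 on day 45. *RGS16* rose by 1.29 on the log2 scale between the hrTSH and cAMP days (standard error 0.27, edgeR adjusted p = 0.00032). *RGS2* and *RGS16* thus both stood higher with hrTSH than with the cAMP analogue.

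**Figure D5:**
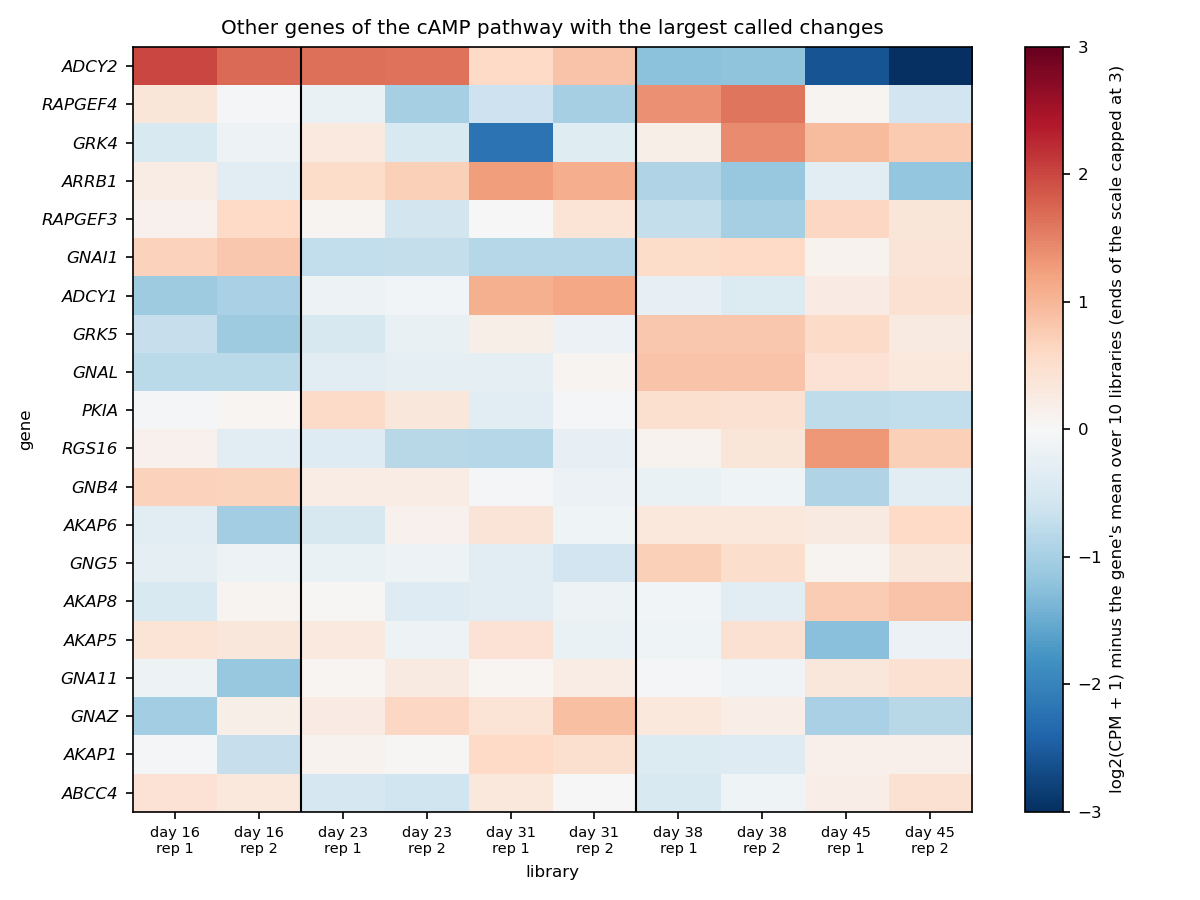
Other genes of the pathway with the largest called changes among those with a mean of at least 5 CPM (rows) in the 10 libraries (columns, by day and replicate). Colour is log2(CPM + 1) minus the gene's mean over the 10 libraries, red higher and blue lower, with the scale ending at 3 in each direction, and vertical lines part basal medium, cAMP analogue and hrTSH. *ADCY2* goes from red to blue across the days, *ARRB1* and *ADCY1* are red on day 31, and *RAPGEF4* is red on day 38.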

How the data were processed

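RNA-seq counts from 10 libraries (5 days, 2 libraries per day) were used. Per the submitters' processing notes, Trimmomatic, HISAT2 and HTSeq were used with GRCh38.p13, and the authors deposited whole-number counts without normalization for 28265 gene symbols. The strand setting of the counting is not given in the sources used here. The kit was a low-input kit, and PCR copies were not separated from molecules, so intervals and the floor of 3 counts cover counting error only. Each file also held 28265 lines with no gene name and no count, which were dropped.

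Samples were grouped by the day in their titles. CPM values were computed with TMM factors (0.896 to 1.07). The 21014 genes that reached 5 counts in 2 or more libraries were tested with edgeR 4.0.16 (quasi-likelihood test, R 4.3.3), with 1 mean per day over all 10 libraries, 5 residual degrees of freedom, and Benjamini-Hochberg adjustment over all genes tested at a threshold of 0.05. The procedure was tested on simulated data. Replicates of one day differed by more than sampling noise (chi-square per degree of freedom 8.38 to 13.7), and each was counted as a sample. The study describes the replicates of a sample as biological, each pooled from distinct wells, and all come from 1 line, so p-values measure the spread between such pools. Standard errors were derived from the F statistic and are approximate.

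The 10 genes and all lists were chosen with earlier results of these data known. The rule for naming other pathway genes was a mean of at least 5 CPM and a call in at least 1 of the 6 comparisons. At most the 20 with the largest called change were kept. Of these, *GNA11*, *GNAZ*, *AKAP1*, *AKAP5* and *AKAP6* are not described in the text above. From day 16 to day 45 *GNA11* (0.98 on the log2 scale) and *AKAP6* (1.15) were called higher and *AKAP5* (−1.01) lower. *AKAP1* was called lower from day 31 to day 38 (−0.97), and *GNAZ* between the hrTSH and cAMP days (−0.97). Each of these calls was lost in at least 1 fit without 1 library. Any pathway gene outside this rule was named after its values were seen. The genes most like *TSHR* are the 5 with the highest Pearson's r of log2 CPM (prior count 2) among genes with a mean of at least 10 CPM. Positions and lengths came from GENCODE 44 on GRCh38, which matched 25755 symbols (91.1%), and promoter windows from RefSeq on GRCh38.p14. The letters TGANGTCA and the canonical transcript lengths were chosen after seeing the data. Alternatives were DESeq2 1.42.0, library size without TMM factors, no low-count filter, filterByExpr, only the libraries of the days compared, the replicate number as a block, leaving out each library, and other transcript lengths. The study's libraries of cells kept on the cAMP analogue to days 38 and 45 were not analysed here.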

Additional observations from a re-analysis of the deposited data

How the results depend on the processing

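Every call of *TSHR*, *ADCY9*, *PRKACB* and *RGS2* kept its direction and its side of the threshold under each alternative run. Of 60 fold changes of the 10 genes over 6 comparisons, 16 were called, and 0 of these turned direction in any setting. The calls that were lost were those of *ADCY6* and *PRKAR2B*, and that of *PRKAR1A* without day 45 replicate 2. *PRKAR2B* between the hrTSH and the cAMP days lost its call without TMM factors (0.40, adjusted p = 0.123) and when any of 5 of the 10 libraries was left out. Depth limits *ADCY3* most, with the fewest counts of the 10 genes.

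Leaving out the TMM factors moved the median of all genes on the log2 scale from 0 to −0.20 from day 31 to day 38, and from 0.02 to −0.15 between the hrTSH and cAMP days. On that scale *PRKACA* (−0.18) and *PRKAR1A* (−0.11) turned direction from day 31 to day 38, and *GNAS* (−0.14), *PRKACA* (−0.062) and *PRKAR1A* (−0.023) did between the hrTSH and cAMP days. None of these had been called.

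The number of the 10 genes called from day 23 to day 31 was 1 instead of 0 with DESeq2, without TMM factors, without a low-count filter and with the replicate block, and 0 to 1 when libraries were left out. From day 38 to day 45 it was 1 with DESeq2, 2 with only the libraries of those days, and 0 to 1 when libraries were left out. With libraries left out it was 2 to 3 from day 16 to day 23, 3 to 4 from day 31 to day 38, 4 to 6 between the hrTSH and cAMP days, 2 to 4 from day 16 to day 45 and 5 to 7 over any day. The replicate numbers of different days do not pair the libraries, since the differences between replicates correlated at −0.032 to 0.020 between days. With the replicate number as a block the value of *PRKACB* from day 16 to day 23 was −0.51 (adjusted p = 0.0493), and the block changed no other call of the 10 genes but that of *RGS2* from day 23 to day 31 (1.05, adjusted p = 0.0318).

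With libraries left out, all genes called numbered 1350 to 2383 from day 16 to day 23, 206 to 646 from day 23 to day 31, 1764 to 3614 from day 31 to day 38, and 1166 to 2816 from day 38 to day 45. Uncalled values that crossed 0 on the log2 scale were *ADCY6* from day 16 to day 23 (−0.13 to 0.052), *TSHR* (−0.016 to 0.25), *PRKACB* (−0.23 to 0.018) and *PRKAR2B* (−0.03 to 0.19) from day 23 to day 31, *GNAS* (−0.13 to 0.077), *PRKACA* (−0.091 to 0.18) and *PRKAR1A* (−0.0055 to 0.22) from day 31 to day 38, *GNAS* (−0.083 to 0.12), *ADCY6* (−0.20 to 0.022) and *PRKACB* (−0.52 to 0.011) from day 38 to day 45, *GNAS* between the hrTSH and cAMP days (−0.0082 to 0.093), and *ADCY3* (−0.31 to 0.037) and *PRKACB* (−0.010 to 0.52) from day 16 to day 45.

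With the longest transcript the share of *ADCY2* on day 16 was 42.2% and that of *ADCY9* on day 45 was 46.1%. With the canonical transcript, chosen after seeing the data, the shares were 51.2% for *ADCY2* on day 16, 48.4% for *PRKACB* on day 38 and 84.8% for *PRKAR1A* on day 45.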

Other observations

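The evenness of replicates differed between days. Genes with 0 counts in one library of a day and at least 10 in the other numbered 548 on day 16, 822 on day 23, 784 on day 31, 166 on day 38 and 683 on day 45. The day 38 pair, on which the largest rise of *PRKACB* and *PRKAR2B* rests, also had the highest correlation of log2 CPM between replicates across genes (r 0.970), against 0.940 to 0.944 for the other days. Genes are not independent replicates, and this is a description.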
